A study of Mus musculus with 4 samples.

Results

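The genes described are 8 of the 24015 genes counted in each library: the glucose transporter genes Slc2a1 and Slc2a3, the monocarboxylate transporter genes Slc16a1 and Slc16a3, and the pyruvate dehydrogenase kinase genes Pdk1, Pdk2, Pdk3 and Pdk4. They were chosen by name, with earlier results of these data known, so counts of them beside shares of all genes are a description. All 8 were found in the files and all 8 passed the filter on low counts. The samples were mouse embryoid bodies, clumps of embryonic stem cells that differentiate in suspension, grown from outbred lines at passages 8 to 10 that had been kept without feeders in LIF and 2i. Per the labels the lines had 2 copies of the Trim33-flox allele together with UbcCreERT2, a tamoxifen-dependent Cre recombinase driven by a ubiquitin promoter and so not limited to a cell type. The Trim33-deficient bodies were induced with 4OH-Tamoxifen on day 4, and both groups were harvested on day 7. Control and Trim33-deficient libraries numbered 2 each. The growth protocol of the Control samples names the same flox allele and transgene, while their genotype label reads wild type, and whether they received tamoxifen is not stated. How many bodies went into a library is not given.

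Cells take up glucose through facilitative SLC2A carriers. Glycolysis turns it into pyruvate, which is either reduced to lactate and exported with a proton through SLC16A carriers or oxidised in mitochondria by the pyruvate dehydrogenase complex. The 4 PDK kinases phosphorylate that complex and switch it off, and phosphatases switch it on again. In low oxygen the transcription factor HIF1 is known to raise Slc2a1, Slc2a3, Slc16a3 and Pdk1, which moves carbon from oxidation to lactate. Slc16a1, Pdk2, Pdk3 and Pdk4 are here set against them as the other isoforms, although Pdk3 has been called hypoxia-inducible in some cells. In early mouse embryos Slc2a1 and Slc2a3 are the main routes of glucose entry.

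HIF1 binds the letters ACGTG or GCGTG, so the 250 bases before the annotated start were searched for both on both strands. RefSeq (GRCm38.p6, a later build than the mm9 of the processing notes) supplied the windows used here, for 7 of the 8 genes. Slc2a3 was not among them. The windows of 3 hypoxia-inducible genes are shown with those of Slc16a1 and Pdk3, so that genes of both kinds can be compared. They run 5′ to 3′ on the strand of the gene, and capitals mark each ACGTG or GCGTG, or its reverse complement.
Slc2a1, chr4:119108495-119108744, + strand: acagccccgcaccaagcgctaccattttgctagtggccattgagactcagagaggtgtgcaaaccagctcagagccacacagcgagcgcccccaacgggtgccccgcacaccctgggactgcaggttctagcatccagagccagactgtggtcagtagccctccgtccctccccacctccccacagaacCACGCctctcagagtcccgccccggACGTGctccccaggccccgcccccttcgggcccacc
Slc16a3, chr11:120948817-120949066, + strand: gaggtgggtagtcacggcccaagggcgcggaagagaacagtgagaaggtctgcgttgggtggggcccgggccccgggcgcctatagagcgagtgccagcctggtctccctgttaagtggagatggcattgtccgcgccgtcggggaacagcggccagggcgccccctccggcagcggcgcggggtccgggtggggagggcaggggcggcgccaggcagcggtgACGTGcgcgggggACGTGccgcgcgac
Pdk1, chr2:71872974-71873223, + strand: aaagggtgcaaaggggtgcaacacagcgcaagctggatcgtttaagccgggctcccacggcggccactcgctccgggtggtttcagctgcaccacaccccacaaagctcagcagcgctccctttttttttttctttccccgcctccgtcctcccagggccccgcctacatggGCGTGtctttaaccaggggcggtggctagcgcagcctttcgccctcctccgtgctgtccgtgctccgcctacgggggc
Slc16a1, chr3:104638414-104638663, + strand: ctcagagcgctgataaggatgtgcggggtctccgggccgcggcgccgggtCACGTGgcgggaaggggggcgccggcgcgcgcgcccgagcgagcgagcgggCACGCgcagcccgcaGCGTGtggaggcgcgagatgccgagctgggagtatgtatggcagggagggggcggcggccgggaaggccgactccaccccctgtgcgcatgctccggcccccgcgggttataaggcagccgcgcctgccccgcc
Pdk3, chrX:93832151-93832400, - strand: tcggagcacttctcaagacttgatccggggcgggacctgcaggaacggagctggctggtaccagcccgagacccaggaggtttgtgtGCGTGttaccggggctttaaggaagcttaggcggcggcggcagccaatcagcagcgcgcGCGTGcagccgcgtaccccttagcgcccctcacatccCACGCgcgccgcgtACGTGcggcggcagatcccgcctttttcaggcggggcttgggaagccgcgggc

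ACGTG matched at bases 36 to 32 before the start of Slc2a1 and at bases 27 to 23 and 14 to 10 before that of Slc16a3. The window of Pdk1 held no ACGTG but held GCGTG at bases 78 to 74. A second annotated start of Pdk1 had neither motif. Among the other isoforms, the window of Pdk3 held ACGTG at bases 53 to 49 besides 3 matches of GCGTG. In Slc16a1 and at the upstream start of Pdk2, ACGTG lay within the palindrome CACGTG, where it matches both strands at once. The downstream start of Pdk2 had neither motif. Bases just after the upstream start were not found in the GENCODE M21 transcripts of Pdk2, whereas those after the downstream start were. Pdk4 had only GCGTG. Of 32851 RefSeq windows of the same length, 16.6% held ACGTG, 28.2% held GCGTG and 38.6% held at least 1 of them. A match describes the letters and does not show binding, and these letters did not separate the 2 classes of genes.

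Depth and identity were examined first. The libraries held 10422738 to 13808837 counts in genes. Control replicate 1 stood apart, with Pearson correlations over genes of 0.932 to 0.952 with the other libraries, which correlated at 0.967 to 0.978 among themselves. Genes are not independent replicates. Trim33, the targeted gene, was at 93.0 and 109 CPM (counts scaled by TMM to a common library size) in Control and 43.8 and 42.3 CPM in Trim33-deficient bodies, so 42.6% was left (log2 fold change −1.23, SE 0.13, edgeR quasi-likelihood adjusted p = 0.219, DESeq2 adjusted p = 1.75e-06). Which exons lie between the loxP sites was not looked up, so the remaining counts can include transcripts without those exons.

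The comparison asks how levels of these carrier and kinase genes differ between Trim33-deficient and Control bodies. Because tamoxifen treatment of Control is not stated, Trim33 loss and the treatment itself cannot be told apart. All 4 hypoxia-inducible isoforms were lower in the Trim33-deficient bodies, with 40.7% of the Control level left for Slc2a3, 43.3% for Pdk1, 49.5% for Slc16a3 and 59.0% for Slc2a1. In such bulk samples fewer cells of a type and less RNA per cell cannot be told apart. Among the other isoforms, 54.9% was left for Slc16a1, 69.0% for Pdk2 and 77.4% for Pdk4, while Pdk3 was at 101.3% of its Control level. The edgeR quasi-likelihood test, adjusted over all 14259 genes tested, called 0 of the 8 genes lower and 0 higher, where it called 0.014% of all genes lower. At an unadjusted p under 0.05 it had 5 of the 8 lower and 0 higher, against 4.78% and 3.06% of all genes. DESeq2 called 4 of the 8 lower and 0 higher, against 0.822% and 0.186% of all genes. These were the 4 hypoxia-inducible isoforms, and 0 of the 4 others passed. The likelihood ratio test of edgeR called 3 lower and 0 higher (0.982% and 0.203% of all genes) and limma voom 0. Without Control replicate 1, which stood apart, DESeq2 called Slc2a3, Slc16a3 and Pdk1 and edgeR's quasi-likelihood test 0 of the 8. Over all genes DESeq2 then called 55 lower and 31 higher and edgeR's quasi-likelihood test 10 lower and 0 higher. In the authors' deposited table, which lists 84 genes, the same 4 isoforms appear and none of the other 4. That table was made from these libraries and is not independent.

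**Figure D1:**
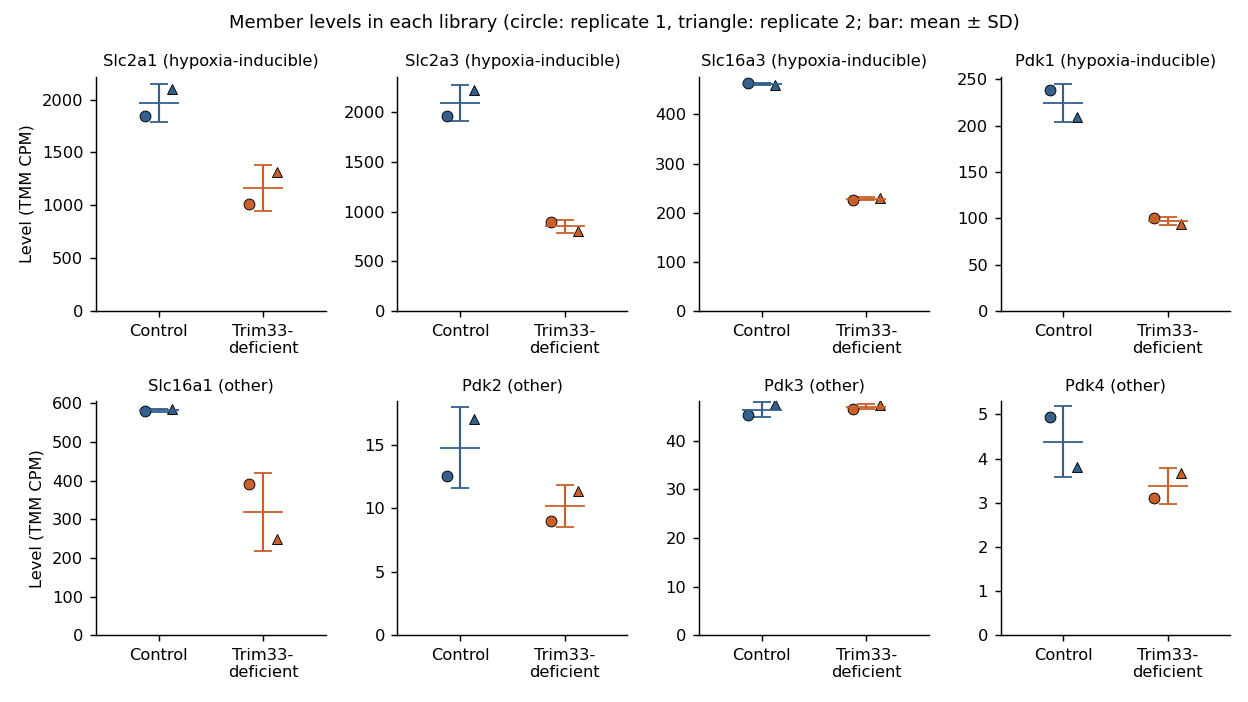
Level of each gene in TMM-scaled CPM (vertical axes, each from 0) in the 2 Control and 2 Trim33-deficient libraries. Circles are replicate 1, triangles replicate 2, and bars the mean ± SD. For 7 of the 8 genes both Trim33-deficient libraries lie below both Control libraries, and for Pdk3 the groups overlap.

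Slc2a3 encodes GLUT3, a high-affinity glucose carrier. Its level was 1963 and 2223 CPM in Control replicates 1 and 2 and 899 and 804 CPM in Trim33-deficient replicates 1 and 2. The groups lay far apart, and Slc2a3 had the lowest log2 fold change of the 8 genes. Group means were 2093 ± 184 and 851 ± 66.8 CPM (SD, n = 2 each), a log2 fold change of −1.30 (SE 0.16, edgeR quasi-likelihood adjusted p = 0.252, DESeq2 adjusted p = 1.05e-11). Of all tested genes 2.46% had a lower log2 fold change. DESeq2 called Slc2a3 with any single library left out, and the adjusted p was at most 0.00549.

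Slc2a1 encodes GLUT1, the carrier of basal glucose uptake. It was at 1845 and 2099 CPM in Control and at 1009.6 and 1317 CPM in Trim33-deficient bodies. Replicate 2 was the higher of the pair in both groups, and the groups did not overlap. The means were 1972 ± 179.8 and 1163 ± 217 CPM (SD, n = 2 each), with a log2 fold change of −0.76 (SE 0.19, edgeR quasi-likelihood adjusted p = 0.548). The DESeq2 call for Slc2a1 (adjusted p = 0.0344) was lost whichever library was left out, with DESeq2 adjusted p of 0.125 and 0.133 without Control replicate 1 and 2 and of 0.9995 and 0.120 without Trim33-deficient replicate 1 and 2. An annotated antisense gene, Gm12868, overlaps an exon of Slc2a1. Whether the counting used strand is not known here. Without strand, reads over the bases they share could not be told apart between the genes of the pair. None of the other 7 genes shares exon bases with another gene in GENCODE M21.

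Slc16a3 encodes MCT4, the low-affinity carrier that exports lactate from glycolytic cells. It was at 464 and 461 CPM in Control and 227 and 231 CPM in Trim33-deficient bodies. Replicates of Slc16a3 were nearly equal within each group, and the groups were far apart. The log2 fold change was −1.02 (SE 0.10, edgeR quasi-likelihood adjusted p = 0.197, DESeq2 adjusted p = 3.39e-09). Leaving out either Trim33-deficient library ended the DESeq2 call (adjusted p = 0.166 for replicate 1 and 0.0801 for replicate 2), although the DESeq2 log2 fold change moved only between −1.03 and −0.99 over all left-out libraries.

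Slc16a1 encodes MCT1, which carries lactate and pyruvate in either direction. Its Control libraries were alike at 579.9 and 585 CPM, but the Trim33-deficient libraries were at 391 and 248.5 CPM. All Trim33-deficient values of Slc16a1 lay below Control, with replicate 2 far below replicate 1. The means were 583 ± 3.89 and 319.8 ± 101 CPM (SD, n = 2 each), a log2 fold change of −0.87 (SE 0.24, edgeR quasi-likelihood adjusted p = 0.548, DESeq2 adjusted p = 0.0838). It was −0.58 without Trim33-deficient replicate 2 and −1.23 without Trim33-deficient replicate 1, and in the latter case DESeq2 called it (adjusted p = 0.0169). With the replicate number as a block, chosen as an addition to DESeq2 after the data were seen, Slc16a1 was called as well (DESeq2 adjusted p = 0.00983), which made 5 of the 8 genes against 0.844% of all genes called lower and 0.585% higher in that fit.

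Pdk1 encodes the kinase isoform that HIF1 raises. It was at 239 and 209.7 CPM in Control and 100.5 and 93.7 CPM in Trim33-deficient bodies. The Control libraries differed more between themselves than the Trim33-deficient ones, and the groups stood well apart. Means of 224 ± 20.5 and 97.1 ± 4.79 CPM (SD, n = 2 each) gave a log2 fold change of −1.21 (SE 0.12, edgeR quasi-likelihood adjusted p = 0.197, DESeq2 adjusted p = 1.75e-08). Of all tested genes 2.96% had a lower one. The DESeq2 call of Pdk1 was lost without Trim33-deficient replicate 2 (adjusted p = 0.0720).

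The remaining kinases had far fewer reads. Pdk3, the isoform least inhibited by pyruvate, was at 45.3 and 47.5 CPM in Control and 46.6 and 47.4 CPM in Trim33-deficient bodies. All 4 libraries were thus within a narrow range, and the log2 fold change of 0.02 (SE 0.12, edgeR quasi-likelihood adjusted p = 0.970) turned sign with the scaling, to −0.01 with upper-quartile scaling and −0.02 with total counts. Pdk2, a widely expressed isoform, was at 12.5 and 17.0 CPM in Control and 9.02 and 11.4 CPM in Trim33-deficient bodies. The groups of Pdk2 did not overlap, but the gap between Control replicate 1 and Trim33-deficient replicate 2 was smaller than the gap within Control. Its log2 fold change was −0.53 (SE 0.28, edgeR quasi-likelihood adjusted p = 0.676), and −0.74 or −0.30 when Control replicate 1 or 2 was left out. Pdk4, known as the isoform of fasting and fatty acid use, had only 39 to 64 counts per library. It was at 4.95 and 3.81 CPM in Control and at 3.10 and 3.67 CPM in Trim33-deficient bodies, without overlap. Its log2 fold change was −0.37 (SE 0.35, edgeR quasi-likelihood adjusted p = 0.784), and between the libraries numbered 2 it was −0.05.

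**Figure D2:**
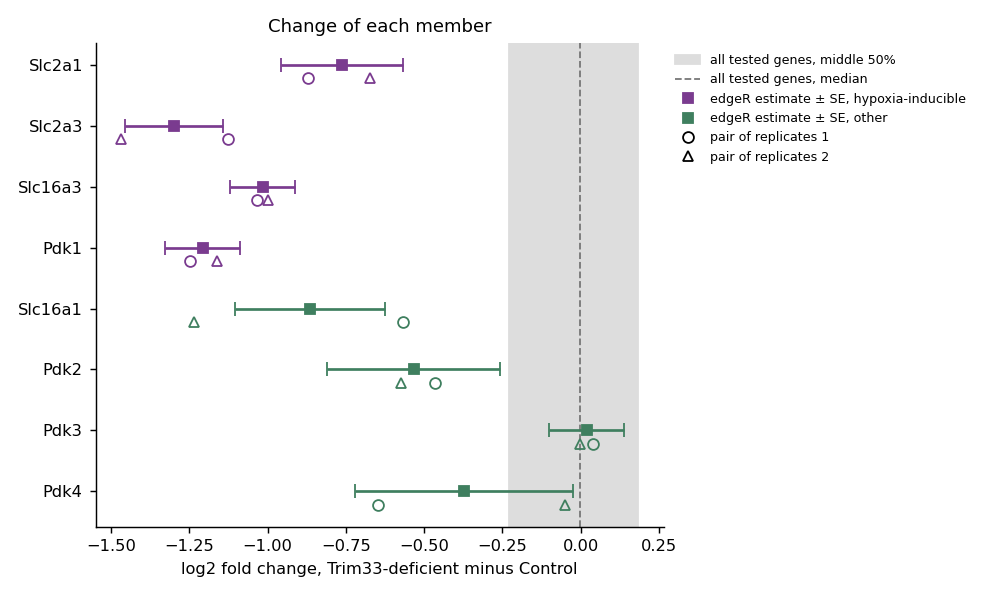
Log2 fold change of each gene, Trim33-deficient minus Control (horizontal axis). Squares are the edgeR estimate ± SE, open circles and triangles the differences within the pairs of replicates 1 and 2, and the grey band the interquartile range of all tested genes. The 4 hypoxia-inducible isoforms lie between −1.30 and −0.76, and the other isoforms spread from −0.87 to 0.02.

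Set side by side, the hypoxia-inducible isoforms had a median log2 fold change of −1.11 and the other isoforms −0.45, a difference of −0.66, where the median of all tested genes was −0.0014. Each class has 4 genes, so the medians are a description. The classes overlapped, because Slc16a1 (−0.87) lay below Slc2a1 (−0.76). With Pdk3 moved to the hypoxia-inducible genes the difference of the medians was −0.48. The groups did not overlap in 7 of the 8 genes, all 7 being lower in Trim33-deficient bodies, as were 21.4% of all tested genes (19.3% were higher without overlap). Groups that do not overlap differ the same way in any pairing, so those 7 had to be lower within both pairs taken by number. The pairs therefore add nothing for them (29.8% of all tested genes were lower within both). Of the 8 genes, 0 were higher within both pairs (30.3% of all).

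Isoforms were then compared within each library, where library scaling cancels and gene length drops out of the group difference. The log2 ratio of Pdk1 to Pdk3 counts was 2.40 and 2.14 in Control and 1.11 and 0.98 in Trim33-deficient bodies. The groups did not overlap, and the difference of −1.22 exceeded the SD within the groups (0.18 and 0.089). The ratio of Pdk1 to Pdk2 was 4.25 and 3.62 in Control and 3.47 and 3.04 in Trim33-deficient bodies. The gap between the groups was here smaller than the spread within them. For Pdk1 to Pdk4 the log2 ratio was 5.58 and 5.76 against 5.002 and 4.66, again without overlap. Between the glucose carriers, the ratio of Slc2a3 to Slc2a1 was 0.090 and 0.083 in Control and −0.17 and −0.71 in Trim33-deficient bodies, so Slc2a3 was the more reduced of the pair in both Trim33-deficient libraries. The lactate carriers gave no such order. Their ratio of Slc16a3 to Slc16a1 was −0.32 and −0.35 in Control and −0.79 and −0.11 in Trim33-deficient bodies, on either side of Control. Ratios of Slc2a3 and of Slc2a1 to Slc16a1 differed by −0.39 and 0.13 between the groups, and the second overlapped. A two-sided exact permutation test over 2 against 2 libraries cannot go below 0.333. That was the p of the 5 ratios whose groups did not overlap, with an adjusted p of 0.467 over the 7 ratios computed, and the exact p of the other 2 was 1.

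Levels of different genes were compared per kilobase of the longest annotated transcript. In Control the order was Slc2a1 at 605 ± 55.2 CPM per kilobase, Slc2a3 at 335 ± 29.5, Slc16a1 at 132 ± 0.880, Slc16a3 at 107 ± 0.445, Pdk1 at 43.2 ± 3.95, Pdk3 at 21.9 ± 0.728, Pdk2 at 6.57 ± 1.41 and Pdk4 at 1.26 ± 0.231 (SD, n = 2 each). No neighbours in that order overlapped between libraries. In Trim33-deficient bodies the order was the same except that Pdk3, at 22.2 ± 0.271 CPM per kilobase, stood above Pdk1, at 18.7 ± 0.924 (SD, n = 2 each). Pdk1 held 61.8% and 56.5% of the PDK family's counts per kilobase in Control, and in Trim33-deficient bodies 41.8% and 38.8%. Pdk3 held 28.8% and 31.4% in Control and 47.6% and 48.1% in Trim33-deficient bodies. The exchange of ranks depended on the length used. With the mean transcript length Pdk1 held 66.2% in Control and 48.0% in Trim33-deficient bodies and Pdk3 23.8% and 40.3%, so the shares moved the same way but Pdk1 stayed first.

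**Figure D3:**
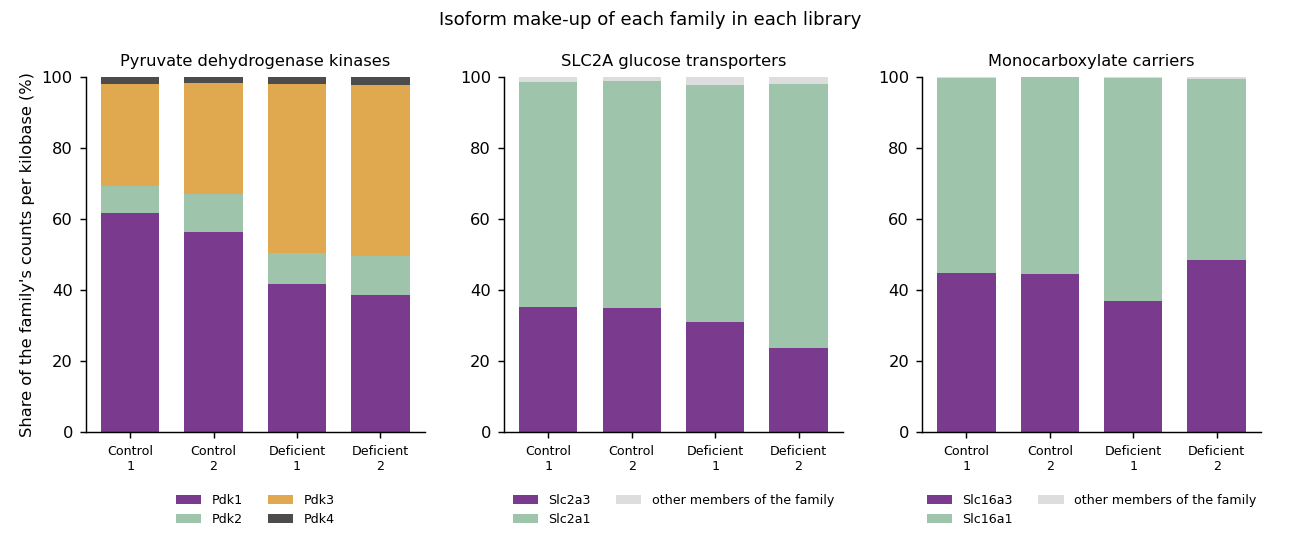
Share of each isoform in the counts per kilobase of its family (vertical axis, percent) in each library (horizontal axis), with the longest transcript as length. Pdk1 takes 61.8% and 56.5% in Control and 41.8% and 38.8% in Trim33-deficient bodies, Pdk3 takes the larger share in the latter, and the shares of the lactate carriers overlap between the groups.

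Slc2a1 and Slc2a3 made up nearly all of the SLC2A family's counts per kilobase. Slc2a3 held 35.2% in both Control libraries, against 31.0% and 23.7% in Trim33-deficient bodies. With the mean transcript length its mean share was 46.7% in Control and 37.6% in Trim33-deficient bodies. The size of that share thus rests on the length used, and it was lower in Trim33-deficient bodies with either length. Slc16a1 and Slc16a3 likewise filled the proton-coupled carriers, with Slc16a3 at 44.9% and 44.5% in Control and 37.0% and 48.4% in Trim33-deficient bodies. The mean transcript length put Slc16a3 above Slc16a1, with 69.3% in Control, so the order of these carriers rests on the length used.

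Related genes of the same steps were listed by role. Their counts stand beside shares over all tested genes of 21.4% lower and 19.3% higher without overlap, 4.78% lower at an unadjusted edgeR p under 0.05 and 0.822% called lower by DESeq2. Of 12 other glucose transporter genes 9 were tested, and their median log2 fold change was −0.07. The edgeR quasi-likelihood test called 0 of them, with 1 at an unadjusted p under 0.05, and DESeq2 called 1, Slc2a2. This gene encodes GLUT2, the low-affinity carrier of liver, gut and yolk sac endoderm, and its counts were 53 and 74 in Control but 3 and 0 in Trim33-deficient bodies (DESeq2 adjusted p = 0.000433, edgeR adjusted p = 0.395). It also appears in the authors' deposited table. Without Control replicate 1 DESeq2 still called Slc2a2 (adjusted p = 0.00319). Without Control replicate 2 it gave no adjusted p, and without Trim33-deficient replicate 1 or 2 the DESeq2 adjusted p was 0.0759 and 0.137. Slc2a4, the insulin-responsive GLUT4 gene, had a log2 fold change of 0.51 (SE 0.25) and Slc2a12 −0.63 (SE 0.44).

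Other SLC16 family genes, sodium-coupled carriers of monocarboxylates and the carriers' chaperones made up a list of 16, of which 11 were tested. Their median log2 fold change was −0.54, and in 8 of the 11 the groups stood apart with Trim33-deficient lower (21.4% of all tested genes), in 0 with it higher (19.3%). EdgeR and DESeq2 called 0 of them, and 1 had an unadjusted edgeR p under 0.05. That was Bsg, encoding basigin, the chaperone that brings MCT1 and MCT4 to the cell surface. Bsg was at 878 and 934 CPM in Control and 597 and 677 CPM in Trim33-deficient bodies (log2 fold change −0.51, SE 0.13). Emb, encoding the related chaperone embigin, was at 366 and 456 CPM in Control and 285 and 128 CPM in Trim33-deficient bodies, so that its Trim33-deficient replicate 2 was low, as it was for Slc16a1. Slc16a13 had −0.51 (SE 0.20).

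Genes of the pyruvate dehydrogenase complex, its phosphatases and pyruvate entry had a median log2 fold change of 0.03 over 10 of 13 tested. Neither edgeR's quasi-likelihood test nor DESeq2 called any of them, and at an unadjusted edgeR p under 0.05 there was 1, the higher Pdp1. Pdp1, the phosphatase that reverses PDK action, was at 10.5 and 18.0 CPM in Control and 24.6 and 34.1 CPM in Trim33-deficient bodies (log2 fold change 1.05, SE 0.34, edgeR adjusted p = 0.608). Both Trim33-deficient libraries of Pdp1 lay above Control, opposite in sign to Pdk1. Pdp2, the second phosphatase gene, had 0.34 (SE 0.21) and Pdha1, the subunit the kinases phosphorylate, −0.49 (SE 0.19). The mitochondrial pyruvate carrier gene Mpc2 was at 14.8 and 12.01 CPM in Control and 13.1 and 13.8 CPM in Trim33-deficient bodies, and Mpc1 had 2 to 4 counts and was not tested.

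All 7 tested genes among 10 for lactate dehydrogenases and glucose trapping were below 0, with a median of −0.53. EdgeR's quasi-likelihood test called 0 (4 lower at an unadjusted p under 0.05, against 4.78% of all genes) and DESeq2 1 (0.822% of all genes), Ldha, which encodes the lactate-forming subunit and was at 1492 and 1293 CPM in Control and 843 and 664 CPM in Trim33-deficient bodies (log2 fold change −0.89, SE 0.18, DESeq2 adjusted p = 0.00257). Hk2, the hexokinase that traps imported glucose, had −0.53 (SE 0.12), and Arrdc4 −0.42 (SE 0.13). Txnip, which encodes an inhibitor of GLUT1 uptake, was at 206 and 257 CPM in Control and 125 and 177 CPM in Trim33-deficient bodies (log2 fold change −0.62, SE 0.22), thus lower like the carriers.

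Hypoxia-inducible genes outside these families were given by 24 genes, all tested, of which 21 were below 0 (50.2% of all tested genes were), with a median of −0.84. DESeq2 called 8 lower (0.822% of all genes) and 0 higher, and edgeR's quasi-likelihood test 0 (12 lower at an unadjusted p under 0.05, against 4.78% of all genes). The groups stood apart in 18 of the 24, lower in each, as in 21.4% of all genes. Bnip3, a mitophagy receptor gene, had −1.44 (SE 0.13), Egln1, the oxygen-sensing prolyl hydroxylase gene, −0.94 (SE 0.10) and the glycolytic gene Pgk1 −1.003 (SE 0.11). The median of the hypoxia-inducible transporter and kinase genes, −1.11, lay within the range of this list, which ran from −1.45 to 0.16.

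**Figure D4:**
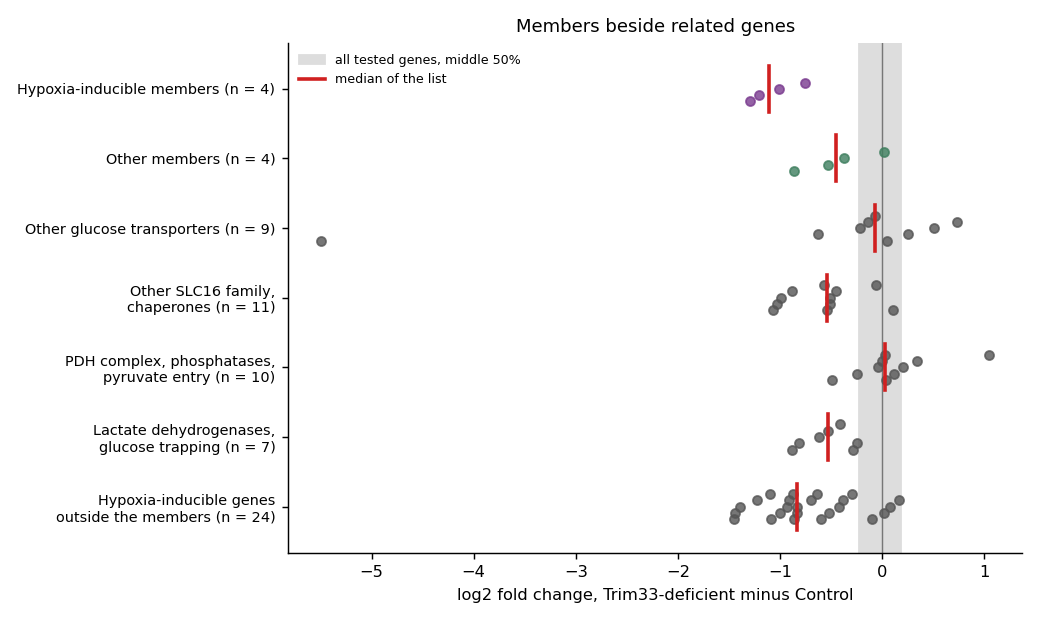
Log2 fold change of each tested gene, Trim33-deficient minus Control (horizontal axis), for the 8 genes in their 2 classes and for the lists of related genes. Red bars are list medians and the grey band the interquartile range of all tested genes. Medians are −1.11 and −0.45 for the 2 classes, −0.84 for other hypoxia-inducible genes and 0.03 for the pyruvate dehydrogenase complex. The point farthest left is Slc2a2, with a library at 0 counts, whose fitted value is neither a fold nor a bound.

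Cell type markers also differed between the groups. The 14 visceral and extraembryonic endoderm markers in the files summed to 1439 and 1871 CPM in Control and 598 and 702 CPM in Trim33-deficient bodies, with 12 of 14 lower without overlap (21.4% of all tested genes) and none at 3 counts or fewer throughout. Afp, Ttr and Apoa1 had log2 fold changes of −4.87, −2.45 and −4.16. The other way went 2 of the 14, the transcription factor genes Gata4 (0.30) and Gata6 (1.004), whose groups overlapped and which are named because they differ from the rest of the list. Between the Control libraries, that sum was higher in replicate 2, as were Slc2a1 and Slc2a3, whereas Pdk1 was lower there and Slc16a3 nearly equal. Between the Trim33-deficient libraries the endoderm sum was also higher in replicate 2, as was Slc2a1. Slc2a3 (899 and 804 CPM in replicates 1 and 2) and Pdk1 (100.5 and 93.7 CPM) were lower there, and Slc16a3 was again nearly equal. Summed mesoderm and mesenchyme markers ran from 317 to 3599 CPM between the Control libraries and from 1501 to 6312 CPM between the Trim33-deficient ones, and cardiomyocyte markers from 175 to 418 and from 283 to 1368 CPM. Neuroectoderm, stem cell, blood and endothelium sums overlapped between the groups too. The part of cell make-up in the values of the 8 genes was not tested.

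The genes whose pattern over the 4 libraries was most like each hypoxia-inducible isoform were found by the Euclidean distance of log2 CPM centred on each gene's mean, among 11529 other genes with a mean of at least 5 CPM. For Slc2a3 these were Trim33 (distance 0.11), Palm3 (0.22) and Apoe (0.25). Pdk1 was at 0.28 from Slc2a3, with 6 genes nearer, and Slc16a3 at 0.34, with 13 nearer. For Slc16a3 the nearest were Pgk1 (0.074), Pde2a (0.097) and Egln1 (0.11), and for Pdk1 they were Prelid2 (0.14), Abcc4 (0.16) and Pde2a (0.17). Slc2a1 was most like Znrd1as (0.086), Rac1 (0.17) and Bend5 (0.17), while Slc2a3 was at 0.65 from it with 1128 genes nearer. Of the 8 genes, Pdk2 was nearest to Slc2a1, at 0.31 with 43 genes nearer, then Slc16a3 at 0.38 with 101 nearer. With 4 libraries many genes share a pattern, and the distances are a description.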

How the data were processed

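The deposited file of each of the 4 libraries gives unnormalised read counts by gene symbol. STAR, HTSeq, DESeq and mm9 are named in the submitters' processing notes, without versions or roles. Rows that name no gene were left out (55.5% to 56.0% of reads were assigned to no feature). From the authors' deposited table of 84 genes, the fold change, its log2 value and the p-value were read, per the file headers.

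Counts were filtered with filterByExpr (14259 genes kept), scaled by TMM and tested with edgeR 4.0.16 (quasi-likelihood, two-sided, Benjamini-Hochberg over all genes, threshold 0.05) in R 4.3.3. Alternatives were DESeq2 1.42.0, limma 3.58.1 voom, other scalings and filters, the replicate block, and each library left out, which assumes that a lone library varies as much as the other group. Log2 CPM used a prior count of 2 and isoform ratios 0.5 counts. Transcript lengths came from GENCODE M21 (GRCm38). The fold change estimates of the edgeR quasi-likelihood fit were checked on simulated counts with the same relative spread for every gene. That check does not cover the p-values or calls in these libraries. Replicates differed beyond sampling noise (chi-square per degree of freedom 37.5 and 25.5). The labels speak of independent pairs, taken here as the shared numbers. Deviations of same-numbered libraries from their group means correlated across genes at 0.236. With 2 libraries per group the opposite pairing gives the same value with its sign reversed, so the correlation does not test the pairing. Nothing says that replicates came from separate lines, so the p-values cover only the spread among these samples, which may be technical.

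The 8 genes, the classes and the lists were chosen with earlier results of these data known. Besides the 8 and Trim33, the rule named in each list the genes edgeR called or else the 3 with the smallest p, plus Bsg, Mpc1, Mpc2, Pdha1, Ldha, Hk2 and Txnip, the first 3 markers of each cell type, and the 3 genes nearest in pattern. Of the markers, only those of the endoderm list are named, with Gata4 and Gata6 added after their values were seen.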

Additional observations from a re-analysis of the deposited data

How the results depend on the processing

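The direction of 7 of the 8 genes held under all alternatives run in which they were tested, and Pdk3 turned sign, to −0.014 with upper-quartile scaling, −0.020 with total counts, and −0.018 (edgeR) and −0.016 (DESeq2) without Control replicate 1. Calls differed by tool. DESeq2 called 115 genes lower and 26 higher, 4 of the 8 among the lower, the likelihood ratio test of edgeR 140 and 29 with 3 of the 8, and limma voom 0 lower, while edgeR without a low-count filter called 14 lower. The median of the hypoxia-inducible isoforms was −1.15 with upper-quartile scaling and −1.15 with total counts. With Pdk3 placed among them it was −1.02, that of the others −0.53 and the difference −0.48. Over the edgeR fits that left out 1 library each, 0 to 29 genes were called lower, 0 to 11 higher and 0 of the 8. The medians ran from −1.13 to −1.06 (hypoxia-inducible) and from −0.54 to −0.31 (other), their difference from −0.82 to −0.56, and Pdk3 from −0.018 to 0.054. With DESeq2, genes called lower and higher numbered 55 and 31 without Control replicate 1, 285 and 394 without Control replicate 2, 44 and 8 without Trim33-deficient replicate 1, and 34 and 14 without Trim33-deficient replicate 2. Of the 8, DESeq2 then called 3, 3, 3 and 1, with medians of −1.12 to −1.06 and −0.54 to −0.30 and a difference of −0.82 to −0.56. The cause was not tested. The edgeR fit with the replicate block called 2 genes lower and 0 of the 8, with a difference of medians of −0.66, and changed no call. DESeq2 with the replicate block, added after the data were seen, called 111 genes lower and 77 higher, 5 of the 8 among the lower. The stricter filter removed Pdk4, so the medians that need it were not computed there. Pdk4 and Pdk2 had the fewest counts of the 8, and whether depth or the spread between replicates sets their error was not tested.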
